A study of Drosophila melanogaster with 8 samples.

Results

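Chromosome 4, the dot chromosome of *Drosophila melanogaster*, carried 2644 of the 294452 peaks in the 12 midgut peak lists of this NanoDam experiment. Every peak that the lists place on chromosome 4 was taken, with no filter: 538 in the 4 lists in which a Cph NanoDam library was called against its control (Cph-over-control), 993 in the 4 Cph NanoDam lists called without a control, and 1113 in the 4 control lists called without a control. The Cph-over-control lists and the Cph lists without a control come from the same 4 Cph libraries, so they are 2 readings of the same DNA. The chromosome holds 0.996% of the bases of the 6 arms compared (4, 2L, 2R, 3L, 3R and X).

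The study asked where the zinc-finger transcription factor Cph (Chronophage) sits in the genome of progenitor cells of the adult midgut. Cph NanoDam flies (CphYFP x UAS-NanoDam x esgTS) carry Cph tagged with YFP, and control flies (UAS-NanoDam x esgTS) have no tagged Cph, so their Dam methylase has no such target. Each genotype has 4 libraries, numbered 1 to 4, each from 30 midguts of adults aged 3 to 5 days. Flies grew at 18 °C and NanoDam was switched on by 17 h at 29 °C. In both genotypes, the labels put replicates 3 and 4 in batch 2. The esgTS driver limits NanoDam to progenitors, but DNA was taken from whole midguts (of mated females, by the study's general fly methods), and the peak lists hold no expression values by which the cell type could be checked.

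NanoDam is a Dam methylase fused to a nanobody that recognises GFP and its relatives. It is drawn to the tagged protein and methylates GATC sites nearby, and only DNA with methylated GATC sites is amplified. Free NanoDam also methylates open chromatin, which the control libraries record. Chromosome 4 is small and almost entirely packaged in HP1a-rich chromatin with many transposons, yet it carries active genes, which the protein POF binds. It does not normally recombine in meiosis.

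The sequences below come from regions of chromosome 4 that are named in the results. First comes the part of the *dati* coding exon that was in a peak of every Cph library. It is split into the shared core and its 2 flanks that no control library covered. Then come the shared regions at the *dati* start and in *zfh2*. They were read on the plus strand of release 6 of the genome (RefSeq), with GATC, the site that Dam methylates, in capitals.

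dati left flank (chr4:390605-390904, the central 300 bp): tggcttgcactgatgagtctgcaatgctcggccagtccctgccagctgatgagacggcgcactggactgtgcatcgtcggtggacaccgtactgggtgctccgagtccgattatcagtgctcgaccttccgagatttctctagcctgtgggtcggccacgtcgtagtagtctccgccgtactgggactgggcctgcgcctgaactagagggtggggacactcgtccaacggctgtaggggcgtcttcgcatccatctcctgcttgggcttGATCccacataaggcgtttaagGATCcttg
dati core, region 8 (chr4:390945-391177): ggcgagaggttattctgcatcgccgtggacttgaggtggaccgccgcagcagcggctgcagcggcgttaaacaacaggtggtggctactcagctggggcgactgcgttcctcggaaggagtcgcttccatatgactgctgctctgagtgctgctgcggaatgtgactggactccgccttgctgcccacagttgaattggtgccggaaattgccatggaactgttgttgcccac
dati right flank (chr4:391178-391404): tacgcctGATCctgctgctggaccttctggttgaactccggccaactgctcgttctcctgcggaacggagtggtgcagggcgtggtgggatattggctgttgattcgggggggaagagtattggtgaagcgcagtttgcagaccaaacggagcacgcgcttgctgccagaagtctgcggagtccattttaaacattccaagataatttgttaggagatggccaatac
dati start, region 9 without the UTR bases (chr4:395606-395804): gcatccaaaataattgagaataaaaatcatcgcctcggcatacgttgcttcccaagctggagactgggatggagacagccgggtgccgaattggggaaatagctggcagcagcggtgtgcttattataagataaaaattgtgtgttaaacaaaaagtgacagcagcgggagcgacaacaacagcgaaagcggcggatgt
zfh2 intron, region 12 (chr4:517227-517435): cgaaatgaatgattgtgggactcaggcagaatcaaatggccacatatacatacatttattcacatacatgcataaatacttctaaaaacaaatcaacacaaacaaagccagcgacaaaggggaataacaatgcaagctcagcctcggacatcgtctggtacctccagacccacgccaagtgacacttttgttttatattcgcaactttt

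The printed parts of the left and right flank hold 2 and 1 GATC sites and the 3 other stretches hold none. Of the 23 regions of chromosome 4 shared by all 4 Cph-over-control lists, 14 (60.9%) hold a GATC site, and all 23 have one inside or within 500 bp. For windows of 200 bp, GATC occurs in 38.2% on chromosome 4 and in 38.6% on the other arms, and for windows of 300 bp in 51.8% and 50.8%. GATC sites number 2.70 per kb on chromosome 4 and 2.80 per kb on the other arms. Positions whose 66-mer is unique in the genome make up 87.7% of chromosome 4 and 89.2% of the other arms, and GC content is 35.2% and 42.2%.

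Depth, as recorded by the peak caller, was 55557571 to 107278227 reads for Cph NanoDam and 70573626 to 125721243 reads for the control. In all 4 same-numbered pairs the control was the deeper library, by 1.14 to 1.31 times, so genotype and depth cannot be told apart in these lists. How many reads lie at a site outside the peaks cannot be read from the lists. Replicate 4 had the fewest Cph-over-control peaks on chromosome 4.

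Chromosome 4 had fewer Cph-over-control peaks for its size than any other arm, in each of the 4 lists. They numbered 160, 151, 145 and 82 in replicates 1 to 4, which is 120.2, 113.4, 108.9 and 61.6 peaks per Mb of sequence without N. The other arms together had 158.0, 145.3, 152.7 and 130.9 peaks per Mb in the same lists. The mean was 101.0 ± 26.7 peaks per Mb on chromosome 4 and 146.7 ± 11.8 on the other arms (SD, n = 4). Lower on chromosome 4 in 4 of 4 lists, the difference had p = 0.125 by an exact two-sided sign-flip test, the smallest p that 4 lists allow, and adjusted p = 0.2 over the 8 measures compared between arms, so 4 lists cannot reach 0.05.

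The gap was wider in the share of bases that these peaks cover. Cph-over-control peaks covered 4.43%, 4.14%, 3.72% and 2.38% of chromosome 4 in replicates 1 to 4, against 7.04%, 6.0%, 6.45% and 6.31% of the other arms. Chromosome 4 was the lowest of the 6 arms in all 4 lists, and its highest list lay below the lowest value of any other arm, 5.79%. The mean difference was -2.78 percentage points (SD 0.857, n = 4, exact sign-flip p = 0.125, adjusted p = 0.2). Peaks were also shorter on chromosome 4, with median lengths of 295.5, 285, 261 and 342.5 bp against 379, 321, 325 and 402 bp on the other arms.

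Without a control, chromosome 4 looked much more like the other arms. Cph libraries had 309, 242, 220 and 222 peaks there and control libraries 307, 264, 246 and 296. Over these 8 lists the density was 197.8 peaks per Mb on chromosome 4 and 201.0 on the other arms, higher on chromosome 4 in 4 lists and lower in 4 (exact sign-flip p = 0.578, also after adjustment), and the sign of this small difference depended on the denominator. The covered share was 10.7% on chromosome 4 and 11.9% on the other arms, lower on chromosome 4 in 7 of 8 lists (difference -1.23 percentage points, SD 0.896, exact sign-flip p = 0.0156, adjusted p = 0.0208). With replicate 2, 3 or 4 left out of both genotypes, adjusted p was 0.0714 to 0.0833. This test takes the 8 lists as separate, but same-numbered libraries are paired: with the replicate number as a block, 4 pairs give an exact p of 0.125 at best, so no difference between arms over these 8 lists passes 0.05 under it (for cover, adjusted p = 0.167, lower on chromosome 4 in 4 of 4 pairs).

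**Figure D1:**
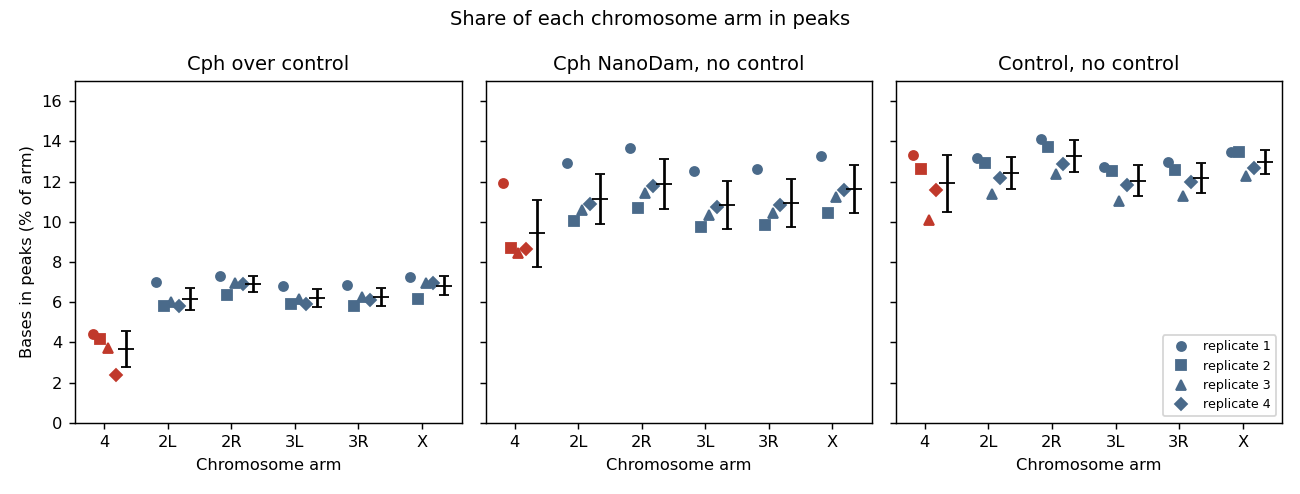
Share of bases in peaks (% of the arm, vertical axis) for chromosome 4 (red) and the 5 other arms (blue) in the Cph-over-control lists, the Cph NanoDam lists and the control lists; each symbol is 1 replicate and the bars are the mean ± SD of 4. In the Cph-over-control panel the 4 values of chromosome 4, 2.38% to 4.43%, lie below every value of the other arms, while in the control panel its values, 10.1% to 13.3%, overlap theirs.

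The ratio of the covered share on chromosome 4 to that on the other arms sets these lists on 1 scale. It was 0.629, 0.690, 0.577 and 0.377 in the Cph-over-control lists, 0.920, 0.857, 0.784 and 0.778 in the Cph lists and 1.01, 0.970, 0.867 and 0.944 in the control lists. Calling the same 4 Cph libraries against their controls took the ratio to a mean of 0.568, against 0.835 without a control, lower in 4 of 4 libraries (exact sign-flip p = 0.125, the smallest possible). Of the bases in a Cph peak without a control, 38.9% ± 9.0 on chromosome 4 and 55.1% ± 3.02 on the other arms were also in a Cph-over-control peak (SD, n = 4, lower on chromosome 4 in 4 of 4, exact sign-flip p = 0.125). Nearly all Cph-over-control bases on chromosome 4, 99.4% ± 0.504, were in a Cph peak without a control, and 83.0% ± 5.18 were in a peak of the control library too.

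Because chromosome 4 is short, the other arms were also divided into 95 consecutive stretches of its length, as a description with no test. By Cph-over-control cover, 12 of the 95 stretches lay below the 3.67% of chromosome 4 (range 0.577% to 12.2%, median 6.90%), and all 12 had less Cph cover without a control as well. The cover over control per cover without a control was 0.389 on chromosome 4 and 0.391 to 0.669 in the stretches, with a median of 0.577, so no stretch was lower. Transposons cover 25.1% of chromosome 4, and the 4 stretches in which they cover at least as much had 0.512 to 0.540. The stretch nearest to chromosome 4, at the proximal end of 2L, has 24.0% transposons, and the next, at 0.422 on 3R, has 7.66%. These are annotated transposons only. Unique 66-mers make up 71.1% of the 2L stretch and 47.4% of the 3R stretch, against 87.7% of chromosome 4.

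**Figure D2:**
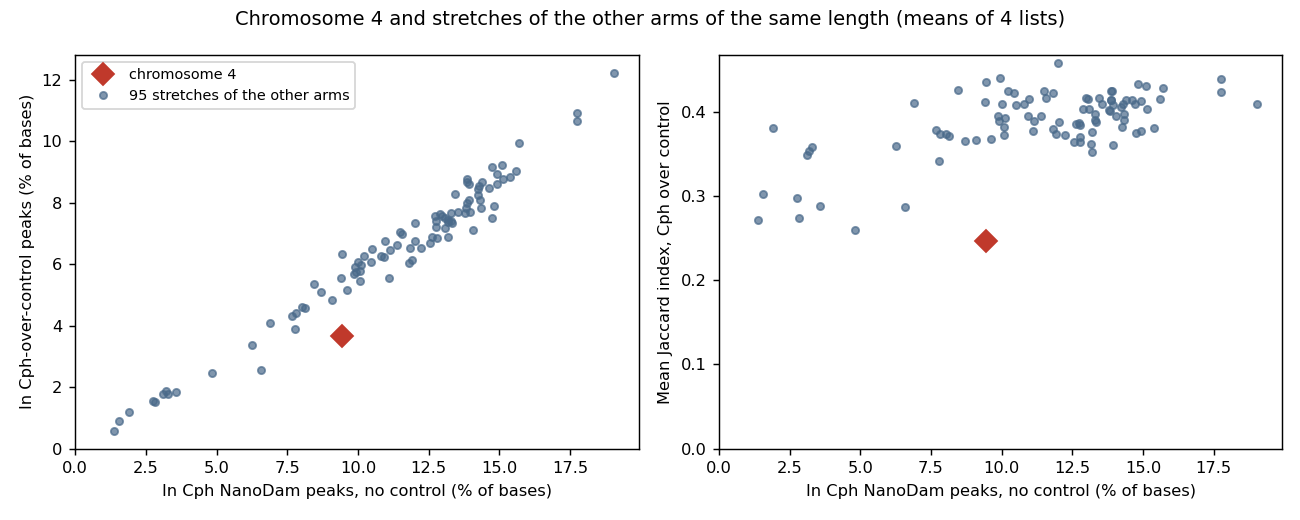
Chromosome 4 (red diamond) and 95 stretches of the same length on the other arms (blue) by the share of bases in Cph NanoDam peaks without a control (horizontal, %), the share in Cph-over-control peaks (left, %) and the mean Jaccard index of replicate pairs of the Cph-over-control lists (right, no unit); each point is a mean over the 4 lists. Chromosome 4 lies below the band of stretches in both panels, at 3.67% and 0.247.

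Median fold enrichment differed little between chromosome 4 and the other arms, and median pileup differed more. The median fold enrichment of Cph-over-control peaks, the pileup over the expected background, was 1.62, 2.00, 2.06 and 1.59 on chromosome 4 and 1.70, 2.01, 2.02 and 1.80 on the other arms, lower on chromosome 4 in 3 of 4 lists (exact sign-flip p = 0.375, adjusted p = 0.429). In the 8 lists without a control it was 2.41 on chromosome 4 and 2.51 on the other arms on average, lower in 6 of 8 (exact sign-flip p = 0.0547, adjusted p = 0.0625). In those lists the median −log10 q differed by -33.3 on chromosome 4, with adjusted p = 0.0104 by the same exact test. Median pileup, the number of extended reads over a peak, averaged 453 ± 210 on chromosome 4 and 725 ± 306 on the other arms in the Cph-over-control lists (SD, n = 4), lower on chromosome 4 in 4 of 4 lists (exact sign-flip p = 0.125), and it was lower in 8 of 8 lists without a control, with a mean difference of -189. The highest Cph peak of chromosome 4 without a control lay in a coding exon of *Mitf*, a transcription factor of lysosomal genes, in replicates 1 to 3 (fold enrichment of 14.6, 24.5 and 14.7) and in a coding exon of *dati* in replicate 4 (15.4). The same 2 exons held the highest control peak in replicates 1, 2 and 4 (15.4, 11.6 and 15.3), and a coding exon of *fd102C* held it in replicate 3 (11.8).

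The annotation of peak bases differed between chromosome 4 and the other arms. Promoters, here the 3000 bp to either side of every transcript start, held 48.4% ± 4.04 of Cph-over-control peak bases on chromosome 4 and 65.9% ± 1.88 on the other arms (SD, n = 4). Coding exons outside promoters held 22.0% ± 2.16 and 8.73% ± 2.51, and intergenic DNA 11.7% ± 2.36 and 6.92% ± 1.15. All 3 differences had the same sign in 4 of 4 lists (exact sign-flip p = 0.125, adjusted p = 0.2). In the 8 lists without a control the promoter share was 43.3% on chromosome 4 and 66.5% on the other arms, the coding exon share 24.0% and 9.07%, and the intergenic share 16.4% and 7.60%, each with the same sign in 8 of 8 lists (exact sign-flip p = 0.00781, adjusted p = 0.0125). Introns held less on chromosome 4 in 8 of 8 of these lists, 13.9% and 15.7%, with the same p. With the replicate number as a block these differences kept their sign in 4 of 4 pairs, but none could pass (exact p = 0.125, the smallest possible, adjusted p = 0.167).

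Much of the coding exon difference is present in the arms themselves. Promoter windows cover 41.4% of chromosome 4 and 47.5% of the other arms, coding exons 13.3% and 4.48%, introns 27.8% and 26.9%, and intergenic DNA 11.2% and 19.1%. Divided by these shares, the coding exon ratio of Cph-over-control peak bases was 1.66 ± 0.162 on chromosome 4 and 1.95 ± 0.560 on the other arms (SD, n = 4), so the mean difference turned its sign, while the ratio stayed higher on chromosome 4 in replicates 1 and 2 and was lower in replicates 3 and 4 (adjusted p = 0.571, exact sign-flip test). The promoter ratio was 1.17 ± 0.0974 on chromosome 4 and 1.39 ± 0.0395 on the other arms and kept its direction. The intergenic ratio was 1.04 ± 0.210 on chromosome 4 and 0.363 ± 0.0603 on the other arms. In the lists without a control the intergenic ratio reached 1.49 ± 0.157 (Cph) and 1.44 ± 0.125 (control) on chromosome 4, against 0.379 ± 0.0403 and 0.418 ± 0.0439 on the other arms. Its lowest value on chromosome 4 over all 12 lists, 0.749, was above its highest on the other arms, 0.478.

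**Figure D3:**
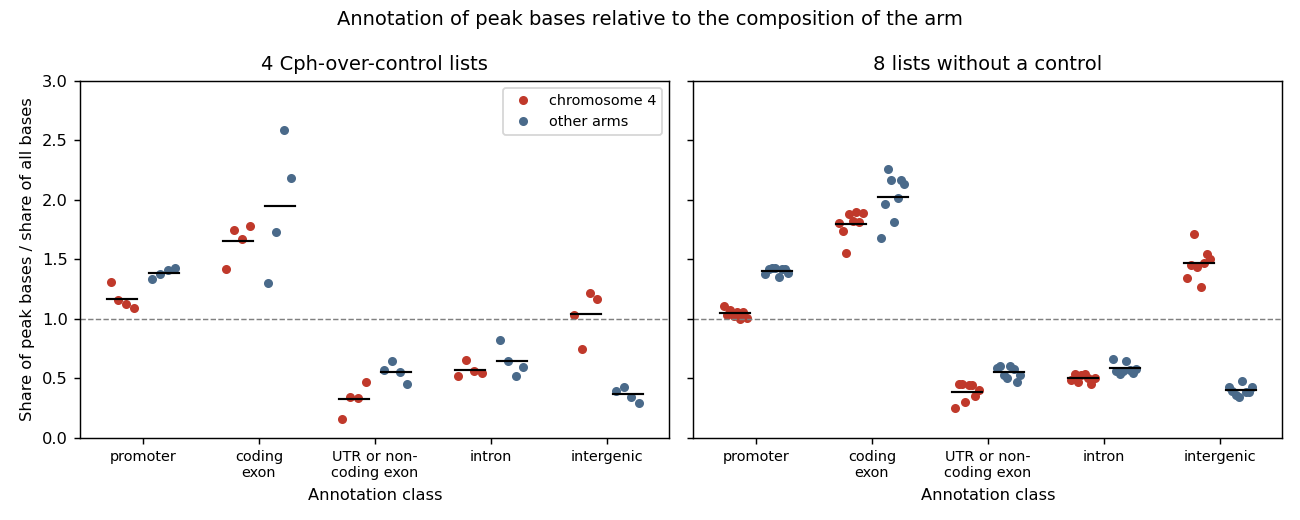
Share of peak bases in each annotation class divided by the share of all bases of the arm or arms in that class (vertical axis, no unit, 1 dashed) for chromosome 4 (red) and the other arms (blue) in the 4 Cph-over-control lists and the 8 lists without a control; each point is 1 list and each bar a mean. Intergenic bases are the class in which the points of chromosome 4, 0.749 to 1.71, lie wholly above those of the other arms.

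Transposable elements cover 25.1% of chromosome 4 and 5.75% of the other arms, and 61.0% and 26.8% of their positions have a unique 66-mer. They held 26.2% ± 1.55 of Cph-over-control peak bases on chromosome 4 and 4.37% ± 0.576 on the other arms. Relative to their share of bases that is 1.05 on chromosome 4 and 0.760 on the other arms. Outside transposable elements, Cph-over-control peaks covered 3.61% ± 0.896 of chromosome 4 and 6.54% ± 0.469 of the other arms, and the difference in cover, -2.93 percentage points, was as large there. The distal end of chromosome 4, from position 1300001, is 95.4% transposable elements and only 14.0% unique, and peaks without a control covered 18.1% ± 4.57 of it in Cph libraries and 25.2% ± 1.53 in control libraries. Whether mapping in repeats took part in the intergenic values was not tested.

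Around the starts of protein-coding genes, Cph-over-control cover was higher than downstream of them on chromosome 4 and lower on the other arms. Within 500 bp of the start, 5.32% ± 0.930 of bases of chromosome 4 were in Cph-over-control peaks, and from 2000 to 5000 bp downstream 3.75% ± 1.27. On the other arms these values were 8.38% ± 0.540 and 9.80% ± 0.675 (SD, n = 4 lists, with 79 and 13865 genes). In the Cph-over-control lists the rise on chromosome 4 was no larger than the ranges of the lists, which overlap. The control lists called without a control had 15.5% ± 1.45 within 500 bp and 9.60% ± 1.71 downstream on chromosome 4, and 19.6% ± 0.924 and 19.3% ± 0.962 on the other arms. Neighbouring starts on the gene-dense arms share these windows.

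Replicates agreed less on chromosome 4 in the Cph-over-control lists. The Jaccard index, the bases in both lists over the bases in either, was 0.191 for replicates 1 and 2, 0.187 for 1 and 3, 0.245 for 1 and 4, 0.402 for 2 and 3, 0.177 for 2 and 4, and 0.278 for 3 and 4 on chromosome 4. The same pairs gave 0.333, 0.310, 0.366, 0.502, 0.360 and 0.498 on the other arms. The mean was 0.247 on chromosome 4 and 0.395 on the other arms, and chromosome 4 was lower in 6 of 6 pairs, which share libraries and so were not tested. None of the 95 stretches of the same length had a lower mean index (range 0.260 to 0.457). Sparser peaks overlap less by chance alone, and Cohen's kappa, which allows for that, was 0.368 on chromosome 4 and 0.532 on the other arms, again lower in 6 of 6 pairs.

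Lists called without a control did not share this gap to the same extent. Between Cph lists the mean Jaccard index was 0.587 on chromosome 4 and 0.626 on the other arms, lower in 6 of 6 pairs. Between control lists it was 0.717 on chromosome 4 and 0.710 on the other arms, lower in 3 of 6. Of the bases of chromosome 4 in any Cph-over-control list, 54.5% were in 1 list and 5.84% in all 4, against 40.3% and 16.3% on the other arms.

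**Figure D4:**
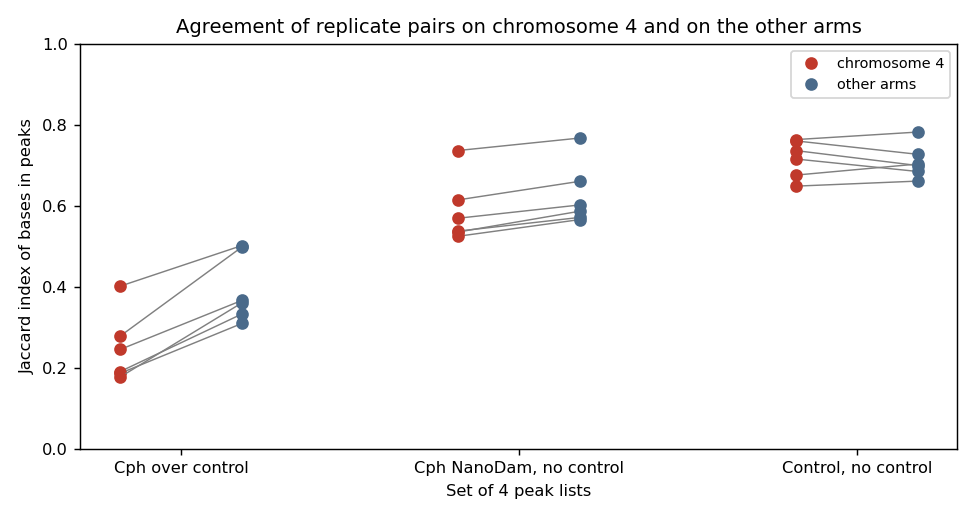
Jaccard index of bases in peaks (vertical axis, no unit) for the 6 pairs of replicates in each of the 3 sets of lists, on chromosome 4 (red, left) and on the other arms (blue, right), with a line joining the same pair. In the Cph-over-control set every line goes up to the right, with values of 0.177 to 0.402 on chromosome 4 and 0.310 to 0.502 on the other arms, and in the control set 3 of 6 do.

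Genotypes were compared on chromosome 4 in the lists without a control. Peaks covered 11.9%, 8.68%, 8.45% and 8.66% of it in Cph libraries 1 to 4, against 13.3%, 12.6%, 10.1% and 11.6% in control libraries. Cph libraries 2 to 4 lay below every control library and Cph library 1 did not. The means were 9.43% ± 1.67 and 11.9% ± 1.41 (SD, n = 4 each; difference -2.48 percentage points, exact permutation p = 0.0857 over 70 arrangements, also after adjustment over 2 tests). The other arms moved the same way, with 11.2% ± 1.21 in Cph libraries and 12.5% ± 0.737 in control libraries, so the ratio of chromosome 4 to the other arms was compared too. That ratio was 0.835 ± 0.0674 in Cph libraries and 0.946 ± 0.0588 in control libraries (exact permutation p = 0.0571, adjusted p = 0.0857). It was lower in Cph in 4 of 4 pairs of the same number, with a difference of -0.0988 within replicates 1 and 2 and -0.124 within batch 2. The ratio does not remove depth. In the Cph lists median pileup averaged 341 on chromosome 4 and 538 on the other arms, and the Cph library was the shallower in all 4 pairs. A difference particular to chromosome 4 and one of depth cannot be told apart here.

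At peaks called in both libraries of a pair, with at least 50% of each peak overlapping, pileup divided by the library's reads gave the same direction. The median log2 ratio of Cph over control pileup was -0.18, 0.29, 0.13 and -0.08 at the 241, 153, 154 and 183 common peaks of chromosome 4, and -0.08, 0.35, 0.24 and 0.09 at those of the other arms. Chromosome 4 minus the other arms, in which depth cancels, was -0.11 ± 0.05 on the log2 scale (SD, n = 4), below 0 in 4 of 4 pairs (exact sign-flip p = 0.125, the smallest possible).

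Along chromosome 4 the lower cover in Cph libraries was spread out. In consecutive windows of 100 kb, the last of them shorter, Cph cover was below control cover in all 4 pairs in 12 of 14 windows and in 3 of 4 pairs in the others. Cph-over-control cover by window was highest at 5.17% ± 0.387, in the window just upstream of *zfh2* (positions 400001 to 500000), and lowest at 1.85% ± 0.358, in positions 1200001 to 1300000. The window from 500001 to 600000, which holds *zfh2* and part of *onecut*, had the highest Cph cover outside the repeat-rich end, 15.9% ± 1.05, against 18.2% ± 0.836 in control libraries.

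Regions shared by all 4 Cph-over-control lists and at least 200 bp long numbered 23 on chromosome 4, or 17.3 per Mb. The other arms had 7249, or 54.8 per Mb, with 51.9 to 60.2 on single arms. In the median, the regions of chromosome 4 were about as strong: their fold enrichment in the weakest list was 1.69, against 1.67 on the other arms. It was at least 2 in 6 of 23 (26.1%) and in 21.6% of the regions of the other arms. Its maximum was 2.60 on chromosome 4 and 14.5 among the far more numerous regions of the other arms. These values hold only for regions that passed the caller in all 4 lists. All 23 lay in a peak of all 4 Cph libraries without a control. A control peak also touched every one of them, in all 4 control libraries for 16 regions. Of the shared regions of the other arms, 2.86% had no control peak, a share so small that 23 regions could well hold none. By class, 12 of the 23 were mostly promoter, 6 intron, 2 coding exon and 3 intergenic, and 6 overlapped a transposable element.

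Of the 5 shared regions with the highest fold enrichment in their weakest list, 2 were at *dati*, which encodes a zinc-finger transcription factor known from the nervous system. Region 9, 238 bp across the start of *dati* with 39 bp in the 5′ UTR, lies in an exon of the antisense RNA CR44027 and had fold enrichments over control of 2.92, 5.67, 3.78 and 2.60 in replicates 1 to 4. Region 8, the core printed above, lies in a coding exon 2349 bp from a start and had 3.02, 3.65, 2.91 and 2.46. Region 7, in a *dati* intron, had 1.78, 3.31, 2.58 and 2.74, with a control peak in 2 of 4 libraries. Replicate 2 was the highest in each.

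The other 3 were in an intron of *anne* (region 3; 2.51, 4.19, 3.98 and 3.42 in replicates 1 to 4), an intron of *zfh2* (region 12; 2.53, 3.79, 3.89 and 2.24) and a coding exon of *MED26* (region 20; 2.22, 2.64, 3.33 and 2.61). The *anne* region lies wholly in remnants of the transposons 1360 and INE-1, with all its positions unique, and only 2 control libraries had a peak there. *zfh2* encodes a homeodomain and zinc-finger transcription factor, and MED26 is a subunit of Mediator. The 5 lowest by the same measure were regions in a coding exon of *RhoGAP102A* (1.29, 1.82, 1.40 and 1.17), an intron of *CG11360* (1.25, 1.67, 1.49 and 1.48) and a coding exon of *gw* (1.92, 1.61, 1.99 and 1.37), with a region in the non-coding gene CR45200 (1.42, 1.51, 1.79 and 1.46) and one in HeT-A repeats near the end of the chromosome (1.45, 1.68, 3.10 and 1.94). The *CG11360* and HeT-A regions have 15.4% and 18.3% unique positions.

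**Figure D5:**
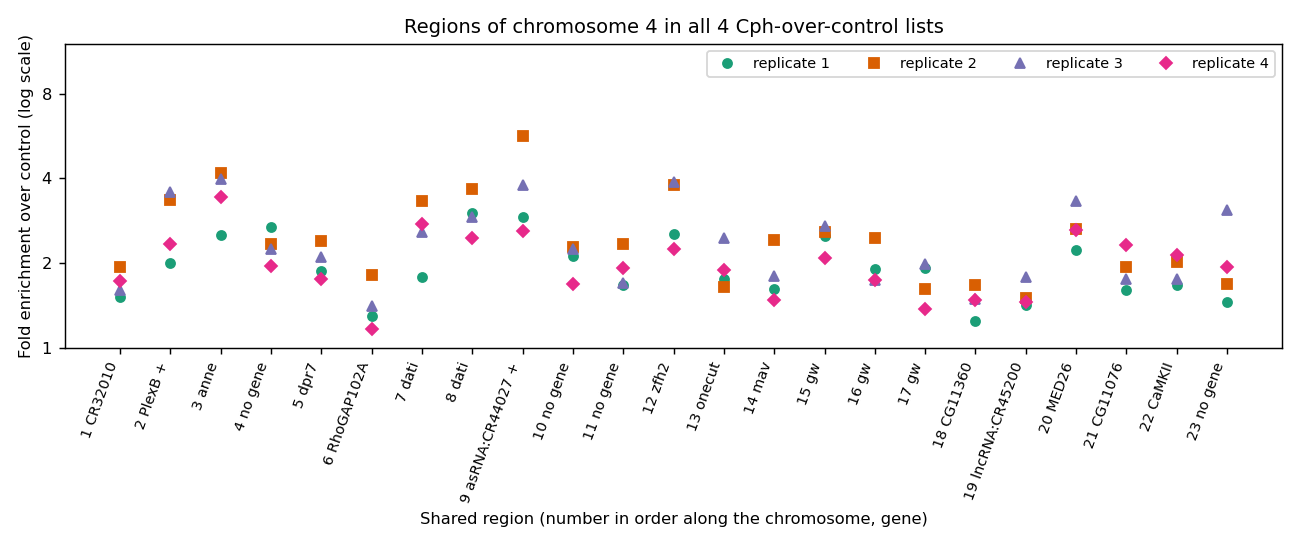
Fold enrichment over control (vertical axis, log scale) of the 23 regions of chromosome 4 found in all 4 Cph-over-control lists, in their order along the chromosome (horizontal axis, with the gene, + for a further overlapping gene); each symbol is 1 replicate. Values run from 1.17 in *RhoGAP102A* to 5.67 at the *dati* start (region 9).

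Of the 80 protein-coding genes of chromosome 4, 15 (18.8%) had a shared region in the gene or within 3000 bp of a start, against 43.7% of all 13945 genes of the 6 arms and 43.9% of those of the other arms. With regions inside the gene alone the gap was narrower, at 13 genes (16.3%) on chromosome 4, against 26.8% of all 13945 genes. Genes are longer on chromosome 4, with a median of 10090 bp against 2156 bp, and fewer per Mb, 60.1 against 104.8. In single Cph-over-control lists, 58, 64, 62 and 47 of the 80 genes had a peak (58.8% to 80.0%), against 73.4% to 83.7% on the other arms, so the gap widened where all 4 lists were required. Without replicate 4 the count was 27 genes on chromosome 4 (33.8%, against 52.1% on the other arms), without replicate 1 it was 29 (36.3%, against 58.9%), and with peaks of at least 3 replicates 46 (57.5%, against 67.5%).

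*dati* and *gw* had 3 shared regions each and the other 13 genes had 1. *gw* encodes the GW182 protein of microRNA silencing, and Cph-over-control peaks covered 13.2% ± 1.01 of it. The next by bases were *dpr7*, of the immunoglobulin superfamily (436 bp), *onecut*, a homeodomain transcription factor (429 bp), *RhoGAP102A* (354 bp), *CG11360* (337 bp), the calcium-dependent kinase gene *CaMKII* (233 bp), *MED26* (215 bp), *anne* (214 bp) and *PlexB*, a semaphorin receptor (213 bp). *mav*, a TGF-beta ligand, *zfh2* and *CG11076* had 209 bp each. *Mpv17* and *ATPsynbeta*, the beta subunit of ATP synthase, counted through the region of their neighbour *CG11076* alone.

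By group, transcription factors and cofactors had a shared region in 3 of 16 genes (*dati*, *zfh2* and *onecut*), signalling ligands, receptors and transducers in 2 of 13 (*PlexB* and *mav*), synaptic and neuronal genes in 1 of 8 (*dpr7*), and housekeeping and metabolic genes in 2 of 15 (*gw* and *ATPsynbeta*). These shares, 12.5% to 18.8%, are close to that of the chromosome. Among the well-known developmental regulators without a shared region were *ci*, the transcription factor of Hedgehog signalling, *pan*, that of Wingless signalling, and the Pax6 genes *ey* and *toy*, with Cph-over-control cover of 2.83% ± 3.67, 1.93% ± 0.640, 1.92% ± 1.99 and 3.79% ± 2.15.

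At 10 of the 80 genes no Cph-over-control list had a peak: *JYalpha*, *CG32006*, *CG1674*, *ND-49*, *Ephrin*, *Actbeta*, *sv*, *Arf4*, *CG11155* and *CG33521*. Of these, *Ephrin*, the ligand of the Eph receptor, *Actbeta*, an activin ligand, *Arf4*, *JYalpha* and *CG32006* were outside the peaks of all 8 libraries without a control too. *sv*, the Pax2 gene, lay, except for its first bases, in the longest stretch of chromosome 4 without a peak in any list. That stretch is 24.8 kb at chr4:1088832-1113588, with 67 GATC sites and nearly all positions unique. At the start of *sv*, position 1088798, peaks without a control reached into the gene. They covered 0.0449% of it in Cph libraries and 0.0398% in control libraries on average. Further long stretches were 17.5 kb in *Sox102F*, 14.5 kb over *PMCA* and *Rnf11*, and 14.1 kb over *Actbeta* and *apolpp*; one of 19.7 kb in *Mitf* is mostly unknown sequence (N). Gaps of at least 10 kb took up 15.1% of chromosome 4 and 31.2% of the other arms, and the longest gap of the other arms was 133.8 kb. The other arms include stretches with as little as 39.3% unique positions. The median gap was wider on chromosome 4, 2167 bp against 1443 bp, and 83.0% of its bases were in no list, against 80.8%.

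Across the 80 genes, the share of the gene in peaks without a control was lower in Cph libraries in 60 (75%), higher in 15 and equal in 5, against 49.2% lower, 29.9% higher and 20.8% equal on the other arms. The median difference was -1.53 percentage points on chromosome 4 and 0 on the other arms. Only *Crk*, an adaptor protein gene, and *Mitf* had groups that did not overlap, 2 of 80, both lower in Cph, where 4.32% of all 13945 genes were lower in Cph at an unadjusted p under 0.05. None of the 80 was higher in Cph without overlap (0 of 80, where 1.43% of all genes were). *Crk* had 16.9%, 16.4%, 25.2% and 15.0% in Cph libraries, against 30.3%, 25.3%, 28.6% and 30.3% in control libraries. *Mitf* had 6.70%, 3.44%, 3.70% and 3.65% in Cph libraries, against 8.02%, 8.26%, 9.05% and 10.03% in control libraries. These are shares of the full gene length, and a stretch of 19.7 kb in *Mitf* that is mostly N lowers them in both genotypes. Both had exact permutation p = 0.0286, the smallest possible, and adjusted p = 0.496 over all genes, and no gene of the 6 arms passed adjustment.

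The cover of the other genes named above overlapped between genotypes. *dati* had 20.3%, 12.1%, 13.2% and 12.9% in Cph libraries, against 12.4%, 13.3%, 10.1% and 8.39% in control libraries, with the mean higher in Cph (exact permutation p = 0.2, adjusted p = 0.850). *zfh2* had 24.8%, 16.9%, 21.6% and 25.8% in Cph libraries, against 29.4%, 25.2%, 26.3% and 27.1% in control libraries (p = 0.0571 by the same exact test, adjusted p = 0.642).

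Regions of at least 200 bp in a peak of every library of one genotype and of none of the other were few. There were 3 for Cph (2.25 per Mb, against 2.33 per Mb on the other arms) and 6 for the control (4.51 per Mb, against 3.44 per Mb). Of the Cph regions, 2 are the flanks of the *dati* core printed above, 379 bp at chr4:390566-390944 and 227 bp at chr4:391178-391404. They belong to 1 Cph peak with fold enrichments without a control of 6.30, 7.77, 6.34 and 5.23 in replicates 1 to 4, whose middle was in control peaks of all 4 libraries. The left flank was in a Cph-over-control peak in 3 of 4 lists and the right flank in 1. The third, 209 bp at chr4:1311547-1311755, lies in HeT-A repeats with no unique position.

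Of the 6 control regions, 2 lay at gene starts of *anne* and *unc-13*. They were found across a start of *anne* (432 bp at chr4:136067-136498, of which 227 bp are UTR) and in the 5′ UTR of *unc-13*, a synaptic vesicle priming gene (814 bp at chr4:905230-906043, of which 750 bp are UTR). Control peaks there had fold enrichments without a control of 2.67, 2.74, 1.51 and 1.64 at *anne*, and of 1.93, 1.68, 1.90 and 1.75 at *unc-13*. A further 3 were intergenic in HeT-A and TART-A, the telomeric retrotransposons, where 0% to 52.8% of positions are unique. One of the 3, in HeT-A, reached 7.15, 4.10, 7.66 and 7.67. Both TART-A regions were 323 bp long with 0% unique positions. Their fold enrichments were nearly equal, at 2.56, 1.67, 2.33 and 2.59, and at 2.56, 1.66, 2.33 and 2.69. Each counts among the 6, though the lists cannot show that they are separate signals. None of the 6 was in a Cph-over-control peak. The selection nearly fixed this, since they have no Cph peak and nearly all Cph-over-control bases lie in Cph peaks.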

How the data were processed

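Each library gave 2 kinds of peak list, used here as deposited, and only the lists of the 4 Cph and 4 control libraries and the 4 lists of Cph over control were read (lists named as filtered held the same peaks and were not used). Per the labels and the methods, the authors trimmed single-end reads (Trim Galore 0.6.10, 10 bp off each end), aligned them to the BDGP6 genome with Bowtie2 2.5.4 allowing 1 mismatch, kept uniquely mapped reads (SAMtools 1.20), and called broad peaks library by library with MACS2 (2.1.4 in the file headers, 2.2.9.1 in the labels; q 0.05, broad cutoff 0.1, duplicates kept, genome size 140000000). Fold enrichment, a ratio of pileup to local background (10000 bp without a control), the pileup signal itself, −log10 p, −log10 q and the score were written by MACS2 as the authors ran it, and were deposited with no scaling between lists. Dropping reads that map to several places would remove signal from repeats, which are dense on chromosome 4. Yet HeT-A and TART-A regions with 0% unique 66-mers had peaks in every library of a genotype. How far such reads were dropped cannot be read from the lists.

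From these files peaks were counted and merged per list and arm with Python 3.11.15, numpy 2.4.6 and scipy 1.17.1, using bases without N as the length. The cover of a gene was instead taken over its full length, N included. Peak bases were annotated with Ensembl release 115 (18277 genes without transposable elements). Bases in peaks of all 4 lists over at least 200 bp made a shared region. Chromosome 4 was set against the other arms within each list by an exact two-sided sign-flip test (Benjamini-Hochberg over 8 measures per set of lists), and genotypes by exact two-sided permutation of all 70 arrangements. Peaks were not treated as replicates. The code was tested on simulated data. Samples were paired by replicate number, as in the Cph-over-control lists. Deviations from the genotype mean in 54067 bins of 1000 bp correlated at 0.174 to 0.395 between same-numbered libraries and at -0.303 to 0.248 between others. Within batch 2, same numbers gave 0.212 (replicate 3) and 0.225 (replicate 4). There, Cph 3 with control 4 gave 0.220 and Cph 4 with control 3 gave 0.248. The correlations therefore do not settle pairing by number in that batch.

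The regions and genes named are the 5 shared regions with the highest and the 5 with the lowest fold enrichment in their weakest list, the 10 genes with most shared regions, members of 4 gene groups (53 listed, 52 on chromosome 4, *Fis1* being on 2R), all regions of 1 genotype (1 of them is not reported here) and the widest stretches without a peak. Members, lists and tests were chosen with earlier results of these data known. Columns on the nearest gene were not used. Alternatives were other denominators, thresholds, windows, overlap measures and samples left out.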

Additional observations from a re-analysis of the deposited data

Results flagged for a closer look

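Among the 63 sets of 4 values examined, 2 had a library far from the other 3. A set of 4 passes this limit by chance about 1 time in 20. In the Cph NanoDam lists without a control, replicate 1 had 11.9% of chromosome 4 in peaks, against 8.45% to 8.68% in the other 3 Cph libraries. The gap took up 0.934 of the whole range (Dixon's test at the 95% level). Replicate 1 was also the highest Cph library on the other arms. In the same lists, the highest fold enrichment of any peak on chromosome 4 was 24.5 in replicate 2, against 14.6 to 15.4 in the other 3 libraries (0.914 of the range), and that peak lay in a coding exon of *Mitf*.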

How the results depend on the processing

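The 24 values compared were computed 218 times under other settings. In the Cph-over-control lists the lower density, cover and promoter share of chromosome 4 kept their direction under every setting tried, and none could reach 0.05 with 4 lists. The intron share was -2.57 to 0.553 percentage points with 1 replicate left out and 1.49 with fold enrichment of at least 2, where the share of UTRs and non-coding exons was -0.710. As observed over expected, chosen after seeing the data, the coding exon and UTR differences were -0.296 and -0.230 in these lists and -0.224 and -0.163 without a control.

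In the 8 lists without a control the density difference was -7.62 to 2.1 peaks per Mb with a replicate left out, 1.40 peaks per 1000 GATC sites, 0.264 over unique positions and 8.51 against all other sequences with Y. The cover difference was -1.48 to -0.993 percentage points with a replicate left out and -0.519 (adjusted p = 0.223, exact sign-flip test) with Y. In place of fold enrichment, −log10 q differed by -33.3 and pileup by -189, both with adjusted p = 0.0104. With a replicate left out, the differences were -24.3 to -22.6 for promoters, 14.4 to 15.7 for coding exons, 1.17 to 1.39 for UTRs, -2.20 to -1.31 for introns and 8.07 to 9.81 for intergenic DNA, with adjusted p of 0.0417 to 0.05, since 6 lists allow little less.

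For agreement, peaks with fold enrichment of at least 2 gave Jaccard differences of -0.103 (Cph-over-control), -0.0565 (Cph) and -0.0156 (control). The Cph difference was -0.0278 by overlapping peaks, -0.0299 by peaks overlapped over 50% and -0.0284 as kappa, which was added after seeing the data. The control difference was -0.00504 to 0.0336 with a replicate left out and -0.00767 with −log10 q of at least 5. The share of bases in all 4 lists differed by -17.2 to -11.2 points with a replicate left out and by -3.68 with fold enrichment of at least 2.

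Shared regions numbered 27 to 39 with a replicate left out (39 without replicate 4), 6 with fold enrichment of at least 2, 0 with at least 500 bp and 64 in at least 3 replicates. Genes with one numbered 19 to 29, 5, 0 and 46 under the same settings. With the replicate number as a block, the genotype differences in cover and in the ratio to the other arms stayed -2.48 and -0.112 with exact p = 0.125, the smallest possible, and no call changed. The comparisons of arms in the 8 lists without a control did lose their calls under that block, added after seeing the data: cover (-1.23), promoters (-23.2), coding exons (14.9), UTRs (1.28), introns (-1.86) and intergenic DNA (8.85) all had adjusted p = 0.167, since 4 pairs allow no exact p under 0.125.

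Peak lists hold no reads outside peaks, so a site below the caller's threshold and a site with no methylation cannot be told apart. Chromosome 4 has few peaks per list, so 1 peak moves its values more than those of a long arm. Uniqueness was judged with 66-mers, while trimmed reads varied in length. The 2 kinds of Cph list share libraries, and control and Cph libraries differ in depth.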
